A study of Mus musculus with 12 samples.

Results

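The response of the mouse heart to pressure overload was examined in animals whose diet lacked the branched-chain amino acids (BCAA) leucine, isoleucine and valine. The comparison set 3 libraries from hearts after transverse aortic constriction (TAC) against 3 libraries from hearts after sham surgery, all on the BCAA-free diet. These are 6 of the 12 libraries of the study. They were chosen by diet alone, and no measured value entered the choice. All animals were male C57Bl/6J mice aged 12 weeks. TAC places a band around the aorta, so that the left ventricle has to pump against a raised pressure, and sham surgery leaves the band out. Mice were on the BCAA-free diet from 4 days before surgery until the heart was taken 1 week after surgery, so the sham animals lacked dietary BCAA as well. The other 6 libraries came from sham and TAC mice on a control diet, which held all essential amino acids with BCAA at the level of standard chow. Values are normalized reads: reads per gene, scaled by the submitters to make the libraries of a table comparable. Of 17632 genes in the table, 17611 had a mean of at least 10 normalized reads over the 6 libraries and were tested. Nothing in the labels says that libraries of 1 group came from separate animals, so p-values measure the spread between these libraries, which may be technical.

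A pressure-loaded ventricle thickens as its myocytes enlarge, and it turns on genes of the fetal heart, among them natriuretic peptides and skeletal actin. Fibroblasts lay down collagen and elastic fibre, and immune cells enter the tissue. Muscle breaks down BCAA through a transaminase and the branched-chain ketoacid dehydrogenase complex in mitochondria, and leucine is a signal for the growth kinase mTORC1. A shortage of amino acids is sensed by a separate arm that acts through the transcription factor ATF4.

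Overload without dietary BCAA changed 1360 genes at an adjusted p below 0.05, which is 7.72% of those tested. In all, 583 genes rose (3.31%) and 777 fell (4.41%). The rises were fewer but larger: their median log2 change was 0.48, against -0.31 for the falls and 0.01 over all genes. A change of at least 2-fold was found for 90 of the genes that rose and 22 of those that fell. The falls lay in genes with a higher level, with a median mean of 3189 normalized reads, against 1227 for the rises and 667 for all genes. Of protein-coding genes 8.86% were called, of lincRNAs 3.75% and of antisense transcripts 3.24%. With no overlap of the groups as the criterion, all 3 TAC libraries lay above all 3 sham libraries for 13.4% of genes and below them for 14.7%, in all 28.1%. A call that held with each of the 6 libraries left out in turn was found for 178 rises and 219 falls. The count of calls was lowest without sham 3, at 543, and was 680 without sham 1, 653 without sham 2, and 877 without TAC 3.

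Between 74203080 and 103113703 reads were recovered per library. On the first principal component (36.6% of the variance), the libraries separated by surgery. It placed the sham libraries at -19.0, -20.8 and -25.5 and the TAC libraries at 25.3, 10.2 and 29.8. TAC 2 was thus the TAC library closest to sham. Among the genes that rose, it was the lowest of the TAC libraries for 57.8% of them. The structured RNAs Rn7sk, Rmrp and Rpph1 summed to 329, 277 and 255 normalized reads in sham and to 5373, 659 and 6457 in TAC. They were thus high in TAC 1 and TAC 3 and closer to sham in TAC 2. Mitochondrial transcripts took 22.6%, 23.2% and 23.6% of reads in sham and 22.1%, 22.5% and 21.9% in TAC. The 11 defining myocyte markers together took between 7.77% and 8.84% of all reads, so the labelled tissue showed its defining markers. Which chambers were taken is not stated in the labels. Transcripts of the atrial genes Myl7, Myl4 and Sln summed to 8884, 13736 and 6113 normalized reads in sham and to 20786, 19212 and 22525 in TAC, higher in every TAC library.

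The calls also followed gene length. Over 5 equal groups of genes by exonic length, from the shortest to the longest, 133, 149, 125, 95 and 78 genes rose and 27, 60, 85, 182 and 419 fell. The median exonic length was 7375 bases for the falls, 3292 for the rises and 3826 for all genes. In the longest group the median deviation from the gene mean was 0.04, 0.05 and 0.03 log2 units in the sham libraries and -0.05, -0.05 and -0.01 in the TAC libraries, a small shift with no overlap. In the shortest group it was -0.05, -0.05 and 0.003 in sham and 0.08, 0.05 and -0.01 in TAC, so TAC 1 and TAC 2 were high and TAC 3 lay within the sham range. With this trend removed in each library, 490 genes rose and 535 fell, and 427 of the 583 rises and 474 of the 777 falls remained called. The part of gene length in the other calls was not tested. For genes named below as called, a call lost with the trend removed is given with its adjusted p.

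**Figure D1:**
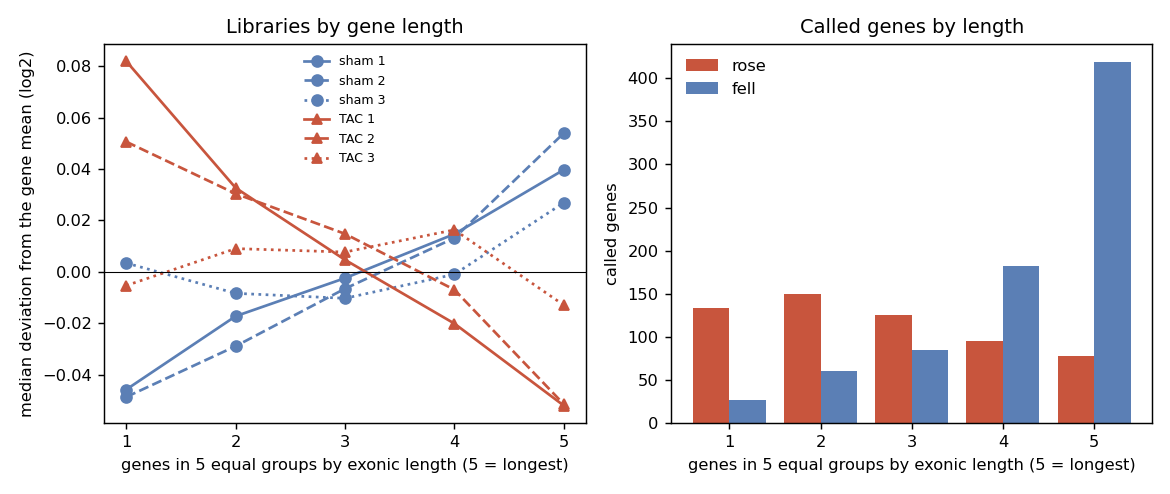
Left, the median deviation of genes from their mean over the 6 libraries (log2) for 5 equal groups of genes by exonic length, 1 line per library, with sham as circles and TAC as triangles. Right, the number of genes that rose or fell in each group. The 3 TAC libraries lie below the 3 sham libraries in the longest group, where 419 genes fell and 78 rose.

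Upstream bases of 4 genes are shown because the results turn on the groups they stand for: Hspa5, Hsp90b1 and Canx for the chaperones of the endoplasmic reticulum (ER), which fell, and Acta1 for the fetal genes, which rose. Capitals mark the ER stress element in the first 3 (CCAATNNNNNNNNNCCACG, searched on both strands), the box bound by activated ATF6 and NF-Y. In Acta1 they mark a CArG box, the site of serum response factor, followed by the letters CATTCC, the MCAT element bound by TEAD factors. Each sequence is RefSeq's for GRCm38.p6, 5′ to 3′ on the strand of the gene.
Hspa5 (chr2:34772019-34772048, plus strand): acttcaCCAATCGGAGGCCTCCACGacggg
Hsp90b1 (chr10:86705510-86705664, minus strand): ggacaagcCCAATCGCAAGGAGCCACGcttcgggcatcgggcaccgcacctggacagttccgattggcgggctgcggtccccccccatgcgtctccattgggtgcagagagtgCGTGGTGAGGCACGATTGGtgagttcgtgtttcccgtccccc
Canx (chr11:50325674-50325833, minus strand): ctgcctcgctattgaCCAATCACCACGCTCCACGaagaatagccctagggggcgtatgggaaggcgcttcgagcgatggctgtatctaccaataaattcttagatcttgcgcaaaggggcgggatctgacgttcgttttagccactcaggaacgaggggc
Acta1 (chr8:123894776-123894935, minus strand): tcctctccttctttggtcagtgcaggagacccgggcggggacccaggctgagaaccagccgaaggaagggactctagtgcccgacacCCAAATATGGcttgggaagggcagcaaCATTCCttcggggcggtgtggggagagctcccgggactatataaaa
The ER stress element lay 65 to 47 bases before the RefSeq start in Hspa5 and 145 to 127 bases before it in Canx. Hsp90b1 held 2 copies, at 212 to 194 bases on the gene's strand and at 107 to 89 bases on the opposite strand. In GENCODE the Hspa5 copy lies within the first exon of a longer transcript model, so only 30 bases around it are shown. The Hsp90b1 stretch stops short of the RefSeq start, since GENCODE places the bases next to that start in the 5′ untranslated region. In Acta1 the CArG box lay 73 to 64 bases and CATTCC 46 to 41 bases before the start.

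Within 250 upstream bases the ER stress element was found in 0.150% of the promoters of tested genes (18 of 11984). It was present in 8 of the 23 members of the ER chaperone list that have a promoter in the table. These were 5 of the 7 that fell (Hspa5, Hsp90b1, Canx, Pdia6 and Calr) and 3 of the 16 that were not called (Dnajc3, Creld2 and Syvn1). CATTCC was in 13.1% of promoters of tested genes and the CArG box in 1.44%. Of 22 promoters of the fetal and hypertrophic list, 8 held CATTCC and 5 the CArG box. CATTCC was in 4 of the 12 that rose, in the 1 that fell and in 3 of the 9 not called, 33.3% of both the first and the last. The CArG box was in 3 of the 12 that rose, in the 1 that fell and in 1 of the 9 not called. A match describes the letters only and is no measurement of binding.

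Genes of the myocyte growth programme rose without dietary BCAA. Of 25 fetal isoforms and hypertrophic markers 12 rose and 1 fell, with a median log2 change of 0.39, against 3.31% and 4.41% called over all genes. Acta1, the skeletal alpha-actin that the fetal heart uses, was at 7930, 7210 and 5592 normalized reads in sham and at 77004, 36823 and 60137 in TAC. All TAC libraries were far above all sham libraries, and TAC 2 was the lowest of them. Acta1 rose by 3.02 ± 0.334 log2 units (SE, n = 3 against 3, limma adjusted p = 0.0171). With 1 library left out, its adjusted p was between 0.0586 and 0.0745 without sham 1, sham 2, sham 3 or TAC 3. Ankrd1, a stretch-responsive nuclear and titin-bound protein, was at 119626, 86743 and 101194 normalized reads in sham and at 277961, 215707 and 243183 in TAC. The groups were well apart, and Ankrd1 rose by 1.27 ± 0.134 (adjusted p = 0.00266), a call that held with each library left out. Csrp3, a Z-disc stress sensor, rose by 0.44, Des, the myocyte's intermediate filament, by 0.41, and Fhl1, a titin-binding LIM protein, by 0.48. The 1 member that fell was Nebl, a Z-disc nebulin (log2 change -0.42 ± 0.0503, adjusted p = 0.000808). Counts of called members ran from 7 without sham 3 to 15 without TAC 2. The other tests, edgeR and DESeq2, called 13 and 18 members, against 1412 and 1893 genes in all.

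Of the natriuretic peptides, Nppa passed the test and Nppb did not. Nppa, atrial natriuretic peptide, was at 22352, 17084 and 14474 normalized reads in sham and at 83839, 49654 and 65546 in TAC. Its TAC values did not overlap with sham, and it rose by 1.88 ± 0.268 (adjusted p = 0.0285). That call was lost without sham 2 (0.111), sham 3 (0.0679), TAC 1 (0.0598) or TAC 3 (0.089). Nppb, brain natriuretic peptide, was at 18829, 14198 and 14177 in sham and at 60463, 29673 and 38119 in TAC. Every TAC library again lay above every sham library, but the change of 1.39 ± 0.316 did not pass (adjusted p = 0.0824). Nppb passed without TAC 1 (0.0498) and in no other fit with 1 library left out (0.0628 to 0.229). Myh7, the slow beta-myosin heavy chain of the fetal ventricle, was at 37282, 35572 and 37682 in sham and at 121518, 54190 and 58901 in TAC. Every TAC library lay above every sham library, with TAC 1 far above the other TAC libraries. The change of 0.99 ± 0.358 did not pass (adjusted p = 0.207). Myh7 passed without TAC 1 (0.000228) and in no other fit with 1 library left out (0.201 to 0.407). Myh6, the adult alpha-myosin heavy chain, had a log2 change of -0.05 (adjusted p = 0.772). Of the 10 natriuretic peptide, processing and receptor genes tested, Nppa was the only call, and their median was 0.10. Nppa is also an atrial gene, and the summed atrial genes named above were higher in all TAC libraries. The part of atrial tissue in these results was not tested.

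All called members of the sarcomere list rose, by small amounts. Of 28 sarcomere genes 10 rose and 0 fell (35.7% called, against 7.72% over all genes), with a median log2 change of 0.15 against 0.01 over all genes. Counts ran from 8 to 11 with 1 library left out. Tnnc1, troponin C of slow and cardiac muscle, was at 144157, 150766 and 152413 normalized reads in sham and at 251259, 225623 and 201811 in TAC. No TAC library came near sham, and Tnnc1 rose by 0.60 ± 0.0737 (adjusted p = 0.000989). Actc1, cardiac alpha-actin, rose by 0.54 ± 0.0828, from 413115 to 476716 in sham to 581162 to 722204 in TAC. Mybpc3, myosin-binding protein C, rose by 0.40, Myl3, a myosin essential light chain, by 0.38, and Myoz2 and Pdlim5, both Z-disc proteins, by 0.42 each. Smpx (0.38), Myom1 (0.32), Actn2 (0.26) and Myl2 (0.25) made up the rest. Calls were lost for Myl2 with the length trend removed (adjusted p = 0.0584), and with libraries left out for Myl2 without sham 1, sham 2, sham 3, TAC 1 or TAC 2 (0.0819 to 0.134) and Actn2 without sham 1, sham 2, sham 3, TAC 1 or TAC 3 (0.0548 to 0.128). The 11 myocyte markers, of which 6 rose and Ryr2 fell, summed to 6407410 to 6991790 normalized reads in sham and to 7261000 to 7489410 in TAC. Since the tissue is bulk, more cells of a type and more RNA per cell cannot be told apart, here and in the results that follow.

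**Figure D2:**
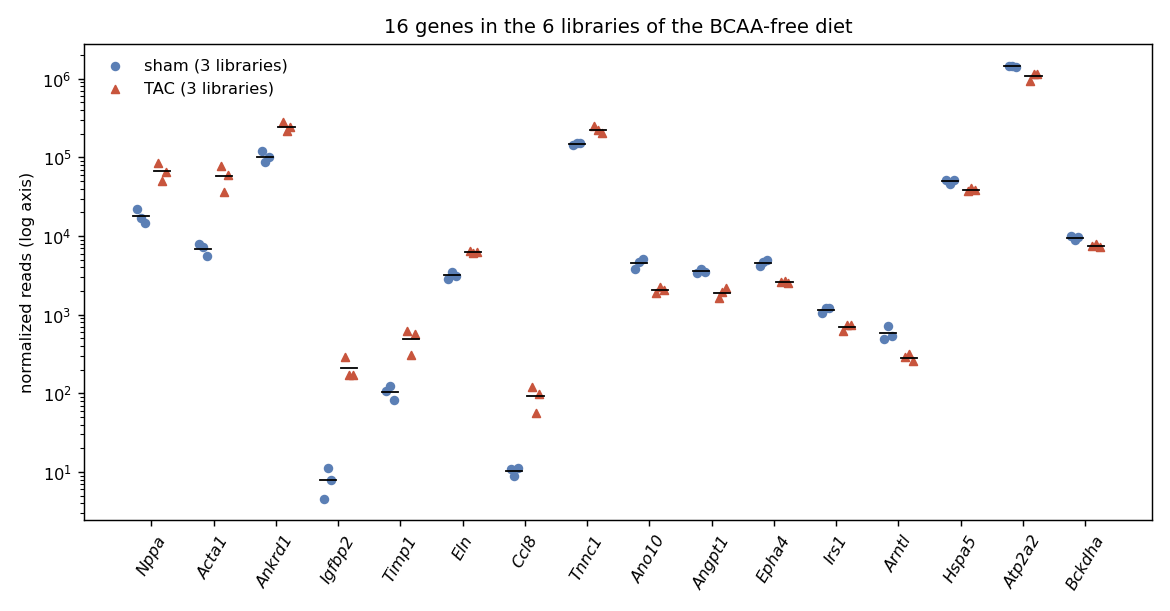
Normalized reads (log axis) of 16 genes in the 6 libraries of the BCAA-free diet, with sham as circles, TAC as triangles and the mean of each 3 libraries as a line. Igfbp2 goes from below 12 in sham to 173 or more in TAC, Tnnc1 and Hspa5 shift by less than 2-fold, and no gene shown has overlapping groups.

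All called members of the 5 matrix lists that follow rose, at 25.0% to 51.9% of each list against 3.31% over all genes. Of 21 fibrillar and network collagens 7 rose and 0 fell (median log2 change 0.63), of 27 matricellular and activated fibroblast genes 14 rose and 0 fell (0.66), and of 21 elastic fibre and microfibril genes 10 rose and 0 fell (0.50). With the length trend removed, 8 matricellular genes rose. Of 20 matrix proteoglycans and hyaluronan genes 5 rose (0.22), and of 25 matrix proteases and inhibitors 9 rose (0.38), with 0 falls in either. The proteoglycan list had 5 rises and 2 falls with the length trend removed. Without sham 3 and without TAC 2, called collagens were 4 and 17, matricellular genes 6 and 16, elastic fibre genes 4 and 15, proteoglycans 2 and 4, and proteases and inhibitors 6 and 10. Collagen calls were 4 without sham 1, and matricellular calls 5 without sham 1 or TAC 3 and 7 without TAC 1. DESeq2 called 15 collagens, 18 matricellular genes, 12 elastic fibre genes, 6 proteoglycans and 12 proteases and inhibitors. edgeR called 7, 13, 10, 5 and 9 of these lists in turn. TAC 2 was also the lowest of the TAC libraries for each of the 9 matrix genes whose values per library follow.

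The elastic fibre list includes the protein itself and the enzymes that cross-link it. Eln, elastin, was at 2884, 3503 and 3076 normalized reads in sham and at 6445, 6079 and 6351 in TAC. The 3 TAC libraries lay close together and well above sham, and Eln rose by 1.00 ± 0.0701 (adjusted p = 5.19e-05). Mfap4, a microfibril-associated protein, was at 529, 633 and 511 in sham and at 1638, 1236 and 1455 in TAC. It rose by 1.37 ± 0.113 (adjusted p = 0.000115), with no overlap. Mfap5, another microfibril protein, rose by 1.11, and the cross-linking enzymes Lox, Loxl2, Loxl3 and Loxl1 rose by 1.48, 1.04, 0.71 and 0.63. Fbln2, Efemp2 and Fbln5, fibulins of the elastic fibre, rose by 0.47, 0.42 and 0.29. Loxl1 was lost with the length trend removed (adjusted p = 0.0672). Calls were lost with libraries left out for Lox without sham 1 or sham 3 (0.053 to 0.0778), Loxl2 without sham 3 or TAC 1 (0.0507 to 0.0536), Loxl1 without sham 1, sham 2, sham 3, TAC 1 or TAC 3 (0.053 to 0.124), Fbln2 without sham 3 or TAC 1 (0.0535 to 0.0591), Efemp2 without sham 1 or sham 3 (0.0541 to 0.0583) and Fbln5 without sham 1, sham 3, TAC 1, TAC 2 or TAC 3 (0.0595 to 0.156).

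Among collagens, Col12a1 and Col14a1, which decorate collagen fibrils, rose by 1.37 ± 0.185 (adjusted p = 0.00138) and 0.94 ± 0.149 (adjusted p = 0.00712). Col18a1 of basement membranes rose by 0.97 and Col16a1 by 0.76. Col3a1, another fibrillar collagen, was at 4989, 6059 and 4825 normalized reads in sham and at 18171, 10381 and 18733 in TAC. It rose by 1.53 ± 0.279 at the edge of the threshold (adjusted p = 0.0497), and this call was lost with the length trend removed (0.0518) and with libraries left out for Col3a1 without sham 1, sham 2, sham 3, TAC 1 or TAC 3 (0.108 to 0.153). Col1a1, the main fibrillar collagen, was at 2492, 2796 and 2486 in sham and at 6443, 3783 and 7550 in TAC. All TAC libraries lay above sham, but TAC 2 was much the lowest, and the change of 1.14 ± 0.29 did not pass (adjusted p = 0.102). Col1a1 passed without TAC 2 (1.81e-06) and in no other fit with 1 library left out (0.144 to 0.249).

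Of the matricellular genes, Cthrc1, a secreted marker of activated fibroblasts, was at 27.4, 25.6 and 14.8 normalized reads in sham and at 146, 69.5 and 133 in TAC. It rose by 2.29 ± 0.323 (adjusted p = 0.00172). Spp1, osteopontin, rose by 2.11 ± 0.22 (adjusted p = 0.00041), from 53.9, 73.5 and 55.8 to 333, 189 and 293. For both genes every TAC library was above every sham library, with TAC 2 the lowest. Postn, periostin, which activated fibroblasts secrete, was at 2466, 3440 and 2416 in sham and at 11506, 6134 and 9237 in TAC. The rise of 1.66 ± 0.298 (adjusted p = 0.0489) was lost with the length trend removed (0.0532) and, with libraries left out, for Postn without sham 1, sham 2, sham 3, TAC 1 or TAC 3 (0.0962 to 0.15). Wisp2, a CCN family protein, rose by 0.90, and Aspn, a small proteoglycan that binds TGF-beta, by 0.66.

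Timp1, an inhibitor of matrix metalloproteinases, was at 109, 124 and 83.1 normalized reads in sham and at 621, 309 and 563 in TAC. It rose by 2.19 ± 0.267 (adjusted p = 0.00254). Adamts8 (1.40) and Adamts2 (0.77), the latter a procollagen N-proteinase, Bmp1 (0.44), the procollagen C-proteinase, and Mmp2 (0.63), a gelatinase, rose as well. The proteoglycans Acan (1.96), Bgn (0.75), Vcan (0.74), Podn (0.73) and Lum (0.69) rose. Acan, aggrecan, went from 11.0, 12.0 and 11.4 to 43.0, 41.9 and 58.7, low values that nevertheless did not overlap. The Bgn call was lost without sham 1, sham 3 or TAC 3 (adjusted p 0.0969, 0.0833 and 0.106), the Vcan call without sham 3 (0.0524), and the Podn call without sham 2, sham 3, TAC 2 or TAC 3 (0.06 to 0.133).

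Igfbp2 (ENSMUSG00000039323, chr1:72824503-72852474 in GRCm38) had the largest change among genes with a mean of at least 50 normalized reads whose call held with each library left out. This secreted binding protein for insulin-like growth factors was at 4.57, 11.2 and 7.97 normalized reads in sham and at 288, 173 and 173 in TAC. It was near the lower limit of testing in every sham library and present in every TAC library. The rise was 4.60 ± 0.326 on the log2(value + 1) scale (adjusted p = 5.19e-05). In the IGF axis list 4 of 13 members rose and 2 fell (46.2% called, against 7.72% over all genes). Their median was -0.01, and 3 to 5 members were called with 1 library left out. Igfbp7 rose by 0.88 ± 0.0832, from 5378 to 6125 in sham to 9431 to 11894 in TAC, and Igf1 and Igfbp6 rose by 0.43 and 0.26. Igf1 was not called without sham 1, sham 2, sham 3, TAC 1 or TAC 3 (adjusted p 0.0791 to 0.143), and Igfbp6 was called in 0 of the 6 fits with 1 library left out (0.0682 to 0.132) and lost with the length trend removed (0.132). Irs1, the docking protein of the insulin and IGF receptors, was at 1049, 1225 and 1202 in sham and at 621, 737 and 746 in TAC. It fell by 0.72 ± 0.0959 (adjusted p = 0.00115), with no overlap. Igf2r, which removes IGF2, had a called change of -0.21 (adjusted p = 0.0406) that was lost with the length trend removed (0.143) and, with libraries left out, for Igf2r without sham 1, sham 2, sham 3, TAC 1 or TAC 2 (0.0604 to 0.141).

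TGF-beta and BMP signalling gave 3 rises and 1 fall among 28 genes (median 0.12), against 3.31% and 4.41% over all genes. Without TAC 2 there were 7. Fstl3 and Fstl1, secreted antagonists and relatives of follistatin, rose by 0.85 and 0.82, and the ligand Tgfb3 by 0.52. Smad3, a signal transducer of TGF-beta, fell by 0.33. The Fstl1 call was lost without sham 1, sham 2, sham 3 or TAC 3 (adjusted p 0.053 to 0.0942), and the Smad3 call without sham 1 or sham 2 (0.0505 and 0.0662). Tgfb2 was at 769, 759 and 721 normalized reads in sham and at 1212, 818 and 1161 in TAC, a change of 0.48 that did not pass (adjusted p = 0.0516). Tgfb2 passed without TAC 2 (0.000889) and in no other fit with 1 library left out (0.121 to 0.159). Ctgf, the connective tissue growth factor CCN2, was at 9614, 15450 and 10542 in sham and at 19766, 8090 and 11758 in TAC. Its groups overlapped widely (log2 change 0.09 ± 0.415, adjusted p = 0.937).

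Of 13 genes of gp130 cytokine signalling 1 fell, the shared receptor Il6st (log2 change -0.22, adjusted p = 0.0386), a call lost with the length trend removed (0.170). Of 21 immediate early genes 1 fell, Fosb, an AP-1 subunit (-0.88, adjusted p = 0.0207). Called shares of the gp130 and immediate early lists were 7.69% and 4.76%, no higher than the 7.72% over all genes. Gdf15, a circulating stress cytokine, was at 58.5, 52.0 and 87.7 normalized reads in sham and at 118, 68.5 and 105 in TAC, with overlap (adjusted p = 0.223). Of 22 integrin and focal adhesion genes 3 rose and 2 fell (22.7% called, against 7.72% over all genes). Itgbl1 (0.77), Itga5 (0.46) and Itga9 (0.41) rose, and Itga1, a collagen receptor subunit, was among the falls (-0.39). Of 25 Wnt genes 1 rose, the secreted antagonist Frzb (0.66), and 3 fell, the receptor Fzd8 (-0.49) and the coreceptors Lrp6 (-0.31) and Lrp5 (-0.24), so 4 of 25 were called. Lrp5 was lost with the length trend removed (adjusted p = 0.124). Calls were lost for Il6st without sham 1, sham 2, sham 3, TAC 1 or TAC 2 (0.064 to 0.126), Fosb without sham 2, sham 3 or TAC 1 (0.0577 to 0.0731), Itga5 without sham 2, sham 3 or TAC 1 (0.0604 to 0.0719), Frzb without sham 1, sham 3, TAC 1 or TAC 3 (0.0804 to 0.113), Fzd8 without sham 2 or TAC 3 (0.0539 to 0.0765) and Lrp5 without sham 1, sham 2, sham 3, TAC 1 or TAC 2 (0.0902 to 0.133), where the values are adjusted p-values with that library left out.

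**Figure D3:**
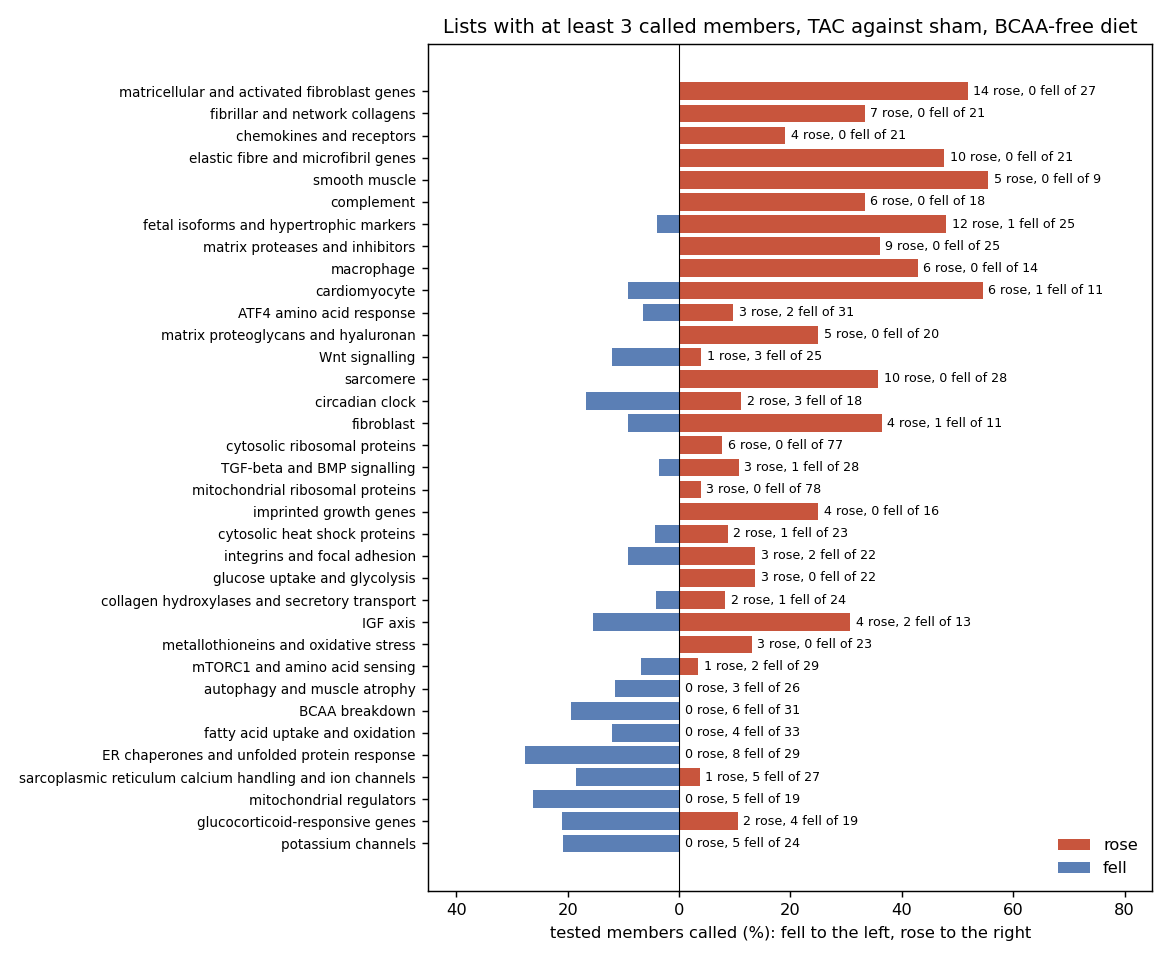
Percentage of tested members that rose (right) or fell (left) in each list with at least 3 called members, ordered by the median log2 change of the list. Matrix and complement lists lie at the top with rises alone, and BCAA breakdown, potassium channels and mitochondrial regulators lie toward the bottom with falls alone.

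Innate immune genes rose in part. Of 18 complement genes 6 rose and 0 fell (33.3% called, against 7.72% over all genes, median log2 change 0.41), with 4 to 9 called when 1 library was left out. C4b, a component of the classical pathway, was at 1239, 1109 and 1048 normalized reads in sham and at 2283, 1954 and 2636 in TAC. It rose by 1.01 ± 0.104 (adjusted p = 0.000612). C1ra (0.55), C1s1 (0.33) and C1qb (0.53) of the C1 complex, C3 (0.42) and the C1 inhibitor Serping1 (0.38) rose too. The C1qb call was lost without sham 1, sham 2, sham 3 or TAC 3 (adjusted p 0.0587 to 0.0769), and the C3 call without sham 2, sham 3 or TAC 1 (0.0709 to 0.0896). Of 21 chemokines and receptors 4 rose. Ccl8, a monocyte attractant, was at 11.0, 8.79 and 11.4 in sham and at 121, 56.2 and 97.4 in TAC, several times above sham in every library (2.96 ± 0.319, adjusted p = 0.000518). Ccr2, the receptor of recruited monocytes, rose by 1.07, Cxcl16 by 0.59 and the decoy receptor Ackr3 by 0.53. Of 29 interferon response and antigen presentation genes 1 rose, Irf7 (0.43, adjusted p = 0.041), lost with the length trend removed (0.0541) and, with libraries left out, for Irf7 without sham 2, sham 3, TAC 1 or TAC 3 (0.096 to 0.138). That share of 3.45% is near the 3.31% over all genes.

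The 14 macrophage markers included 6 that rose and 0 that fell (42.9% called, against 7.72% over all genes, median 0.34). They summed to 22391, 25205 and 22882 normalized reads in sham and to 32435, 25755 and 29477 in TAC, so TAC 2 lay close to the highest sham library. Counts ran from 2 without sham 1, sham 3 or TAC 3 to 10 without TAC 2, and 3 were called with the length trend removed. Trem2, a lipid receptor of macrophages, rose by 0.74. Cd68, a lysosomal macrophage protein, went from 290, 333 and 246 to 445, 357 and 438 (0.51 ± 0.138, adjusted p = 0.0427), and Lyz2 rose by 0.28. Both of these calls were lost with the length trend removed (0.0881 and 0.0965), and with libraries left out for Cd68 without sham 1, sham 3, TAC 1 or TAC 3 (0.101 to 0.15) and Lyz2 without sham 1, sham 3, TAC 1 or TAC 3 (0.0713 to 0.133). Their part in the complement and chemokine results was not tested.

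All called chaperones of the ER fell. Of 29 ER chaperones and unfolded protein response genes 8 fell and 0 rose, against 4.41% and 3.31% over all genes, and 24 of the 29 had a lower mean in TAC (median log2 change -0.12). For 13 of the 29 all TAC libraries lay below all sham libraries, and for 2 above, against 14.7% and 13.4% of all genes by that criterion. Hspa5 (BiP, ENSMUSG00000026864, chr2:34771970-34777547 in GRCm38), the main Hsp70 of the ER lumen, was at 52343, 46345 and 51365 normalized reads in sham and at 37842, 40254 and 38027 in TAC. The lowest sham library was above the highest TAC library, and Hspa5 fell by 0.37 ± 0.0601 (adjusted p = 0.00359). Canx, calnexin, the membrane-bound lectin chaperone, was at 28357, 26123 and 28289 in sham and at 21434, 21525 and 21576 in TAC. The TAC values were almost equal to each other, and Canx fell by 0.36 ± 0.0532 (adjusted p = 0.00214). Both held with each library left out.

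Hsp90b1 (GRP94), the ER Hsp90, was at 33224, 29296 and 31883 normalized reads in sham and at 25967, 25679 and 24910 in TAC. It fell by 0.30 ± 0.0582 (adjusted p = 0.0097), and the call was lost without sham 1 (0.053) or sham 3 (0.0536). Pdia6, a disulfide isomerase, fell by 0.25 (adjusted p = 0.0279), and was not called without sham 1 (0.111), sham 3 (0.114) or TAC 3 (0.0786). Manf, a secreted ER stress factor, fell by 0.25, Calr, calreticulin, by 0.23, and Dnajb9 and Sel1l, which serve ER-associated degradation, by 0.21 each. Calls were lost for Manf without sham 1, sham 3, TAC 1, TAC 2 or TAC 3 (0.0535 to 0.158), Calr without sham 1, sham 3, TAC 1, TAC 2 or TAC 3 (0.0564 to 0.156) and Dnajb9 without sham 1, sham 2, sham 3, TAC 2 or TAC 3 (0.0627 to 0.121). Sel1l was called in 0 of the 6 fits with 1 library left out (0.0583 to 0.156) and lost with the length trend removed (0.129). Summed over the list, the level was 263033, 239525 and 255893 in sham and 219399, 219354 and 218447 in TAC. The sums did not overlap, and the 3 TAC libraries differed from each other by less than any 2 sham libraries. Without sham 1 or sham 3 the list had 2 calls, without TAC 3 it had 4, and 7 with the length trend removed. Hspa5, Hsp90b1 and Canx carry the capitals in the sequences above.

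**Figure D4:**
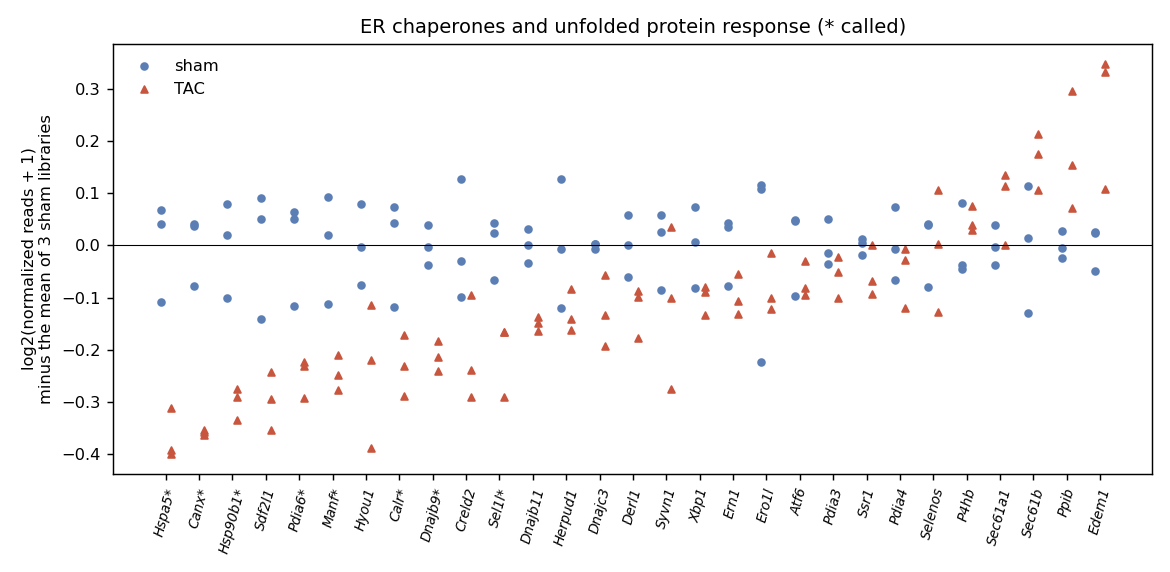
The 29 tested ER chaperones and unfolded protein response genes, ordered by log2 change. Each point is 1 library as log2(normalized reads + 1) minus the mean of the 3 sham libraries, with sham as circles and TAC as triangles, and an asterisk marks a called gene. Triangles of the genes at the left, from Hspa5 and Canx on, lie below the circles.

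Other genes of the secretory pathway were called in both directions. Called were 12.5% of the collagen hydroxylase and secretory transport list and 13.0% of cytosolic heat shock genes, against 7.72% over all genes. Of 24 collagen hydroxylases and secretory transport genes 2 rose, the retrieval receptor Kdelr3 (0.52) and the prolyl hydroxylase P3h3 (0.30), and 1 fell, the cargo receptor Lman1 (-0.24). Kdelr3 was not called without sham 1 (adjusted p = 0.0531) or sham 3 (0.0651). P3h3 was called in 0 of the 6 fits with 1 library left out, and both P3h3 and Lman1 were lost with the length trend removed (0.0628 and 0.0587). The left-out libraries also ended the calls of Lman1 without sham 1, sham 2 or sham 3 (0.0506 to 0.0685) and Hsph1 without sham 1 or sham 2 (0.0514 to 0.0545). Of 23 cytosolic heat shock genes Hspa1a (0.88) and Hspb1 (0.44) rose and Hsph1 fell (-0.33). The groups overlapped for Hspa1a, with TAC 2 at 164 normalized reads and sham 1 at 166. The Hspa1a call was lost without sham 2, sham 3, TAC 1 or TAC 3 (adjusted p 0.123 to 0.159) and with the length trend removed (0.0646).

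All called genes of BCAA breakdown fell, by small amounts. Of 31 genes 6 fell and 0 rose, against 4.41% that fell over all genes, and 27 had a lower mean in TAC (median log2 change -0.09). Bckdha, the catalytic alpha subunit of the branched-chain ketoacid dehydrogenase (ENSMUSG00000060376, chr7:25629946-25658981 in GRCm38), was at 10003, 8894 and 9677 normalized reads in sham and at 7449, 7871 and 7343 in TAC. The groups did not overlap, and Bckdha fell by 0.33 ± 0.0589 (adjusted p = 0.00591). Ppm1k, the phosphatase that activates this complex, was at 9985, 9667 and 9269 in sham and at 6782, 8244 and 7270 in TAC and fell by 0.38 ± 0.0698 (adjusted p = 0.00735). Klf15, a transcription factor of BCAA breakdown, fell by 0.41, from 6389 to 7058 in sham to 4574 to 5692 in TAC. Acadsb, an acyl-CoA dehydrogenase of isoleucine, fell by 0.29 ± 0.0552 (adjusted p = 0.00858). These 4 calls held with each library left out. Aldh6a1 of the valine pathway (-0.28) and Dbt, the E2 core of the dehydrogenase (-0.26), were the other 2 falls. These calls were lost for Aldh6a1 without sham 1, sham 2, sham 3, TAC 1 or TAC 3 (0.0875 to 0.139) and Dbt without the same libraries (0.0557 to 0.101). Bcat2, the mitochondrial transaminase of the first step, was at 8351, 7316 and 7865 in sham and at 7168, 7765 and 6969 in TAC, with overlap (adjusted p = 0.367). Counts were 4 without sham 1, sham 2, sham 3, TAC 1 or TAC 3, and 9 without TAC 2.

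Of 29 mTORC1 and amino acid sensing genes 1 rose and 2 fell, a share near the 3.31% and 4.41% over all genes. Rragd, a Rag GTPase that brings mTORC1 to the lysosome, was at 12978, 11766 and 12726 normalized reads in sham and at 9468, 9281 and 8181 in TAC. It fell by 0.48 ± 0.066 (adjusted p = 0.00144), with no overlap. Sesn3, a sestrin, which restrains mTORC1, fell by 0.37 (adjusted p = 0.0251), lost with the length trend removed (0.0854) and for Sesn3 without sham 1, sham 2, TAC 1 or TAC 2 (0.0615 to 0.0932). Eif4ebp1, the translation repressor that mTORC1 phosphorylates, was the rise, by 0.37 ± 0.0545 (adjusted p = 0.00214). Of 31 genes of the ATF4 amino acid response 3 rose and 2 fell (16.1% called, against 7.72% over all genes). Nupr1, a stress-induced chromatin protein, was at 280, 297 and 287 in sham and at 638, 607 and 516 in TAC. It rose by 1.02 ± 0.111 (adjusted p = 0.000518), with all TAC libraries well above sham. Atf4 itself rose by 0.32 ± 0.0663 (adjusted p = 0.014), lost without sham 1 (0.0505) or sham 3 (0.053). Chac1, which degrades glutathione, was at 784, 756 and 905 in sham and at 542, 561 and 607 in TAC and fell by 0.51 ± 0.0955 (adjusted p = 0.00789). Vldlr, a lipoprotein receptor, fell by 0.43. Called members were 4 to 7 when 1 library was left out, the most without TAC 1.

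None of 25 aminoacyl-tRNA synthetases was called by limma. edgeR called 0 and DESeq2 2, and limma's unadjusted p was below 0.05 for 3 with a higher and 3 with a lower mean. Their summed level was 192397, 179995 and 183418 normalized reads in sham and 359095, 218059 and 448867 in TAC. This high sum in TAC 1 and TAC 3 came with the mitochondrial leucyl-tRNA synthetase Lars2, whose log2 change of 1.49 did not pass, and it lay in the same libraries as the structured RNAs. Their part in it was not tested.

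All called genes of fatty acid uptake and oxidation fell, by small amounts. Of 33 genes of fatty acid uptake and oxidation 4 fell and 0 rose (12.1% called, against 7.72% over all genes, median log2 change -0.10). These were Acot1 (-0.45), the transporter Slc27a1 (-0.33), Mlycd (-0.24), which removes the inhibitor malonyl-CoA, and lipoprotein lipase Lpl (-0.23), the last lost with the length trend removed (adjusted p = 0.111). With libraries left out, calls were lost for Acot1 without sham 2, sham 3, TAC 1 or TAC 3 (0.0721 to 0.106), Slc27a1 without sham 1, sham 2, sham 3, TAC 1 or TAC 3 (0.0572 to 0.132), Mlycd without sham 2, sham 3, TAC 1, TAC 2 or TAC 3 (0.0719 to 0.166) and Lpl without sham 1, sham 2, sham 3 or TAC 3 (0.0557 to 0.1), and without sham 2, sham 3 or TAC 3 the list had 0 calls. Pdk4, the kinase that shuts off pyruvate oxidation, was at 19793, 104458 and 43712 normalized reads in sham and at 60547, 11942 and 16280 in TAC. It varied widely within either group, and the groups overlapped (adjusted p = 0.636). The 22 tricarboxylic acid cycle genes gave 0 calls by limma, edgeR and DESeq2, and limma's unadjusted p was below 0.05 for 2 with a higher and 3 with a lower mean. Of 22 glycolysis genes Pfkp (0.36), Pgam2 (0.30) and Gapdh (0.25) rose and 0 fell (13.6% called, against 7.72% over all genes). Gapdh was not called without sham 2 (adjusted p = 0.0962), sham 3 (0.0832) or TAC 1 (0.0568).

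Nuclear-coded oxidative phosphorylation genes had higher means in TAC for 56 of 63 members, with a median log2 change of 0.08, against 0.01 over all genes. Only 2 rose by the test, Ndufa11 of complex I (0.34 ± 0.0566, adjusted p = 0.00405) and Cox6b1 of complex IV (0.27), and the median was 0.03 with the length trend removed. Without TAC 3 there were 6 calls. Ribosomal proteins of the cytosol were higher in TAC for 73 of 77 members, with a median of 0.12, or 0.07 with the length trend removed, and 6 rose. Rpl39 (0.41), Rpl38 (0.35) and Rpl3 (0.28) led them, and 0 to 11 members were called with 1 library left out (0 without sham 1 or sham 2, 11 without TAC 3). Of 78 mitochondrial ribosomal proteins 3 rose, Mrpl33 (0.33), Mrps18b (0.31) and Mrpl43 (0.22), and 8 were called without TAC 3. Rises made up 3.17% of the oxidative phosphorylation genes, 7.79% of cytosolic and 3.85% of mitochondrial ribosomal proteins, against 3.31% over all genes. The first and last of these shares were near that of all genes. With the length trend removed, Cox6b1 (adjusted p = 0.0539), Mrps18b (0.051) and Mrpl43 (0.117) were lost. In that fit 3 cytosolic ribosomal proteins rose and 1 fell, and 1 mitochondrial ribosomal protein rose and 1 fell. Adjusted p-values passed 0.05 for Cox6b1 without sham 1, sham 2, TAC 1 or TAC 2 (0.0613 to 0.124), Rpl39 without sham 1, sham 2 or TAC 1 (0.0701 to 0.0801), Rpl38 without sham 1, sham 2, TAC 1, TAC 2 or TAC 3 (0.0713 to 0.121), Rpl3 without sham 1, sham 2 or sham 3 (0.0587 to 0.0711), Mrps18b without sham 1, sham 3 or TAC 3 (0.0531 to 0.0734), Mrpl33 without sham 2 (0.0548) and Mrpl43 without sham 1, sham 2, sham 3, TAC 1 or TAC 2 (0.0802 to 0.14). Genes of these lists are short, and the shortest group of all genes was high in TAC 1 and TAC 2, as given above. Ribosomal proteins have near-identical pseudogenes that can share reads with them. The 13 mitochondrially coded proteins gave 0 calls by limma and 1 by DESeq2 (median -0.03), and 2 fell with the length trend removed.

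Regulators of mitochondrial genes fell where called. Of 19 such regulators 5 fell and 0 rose (26.3% called, against 7.72% over all genes, median log2 change -0.15). These were the nuclear receptors Nr1d1 (-0.62), Rxra (-0.27) and Esrrg (-0.24), together with Klf15 and the muscle factor Mef2a (-0.35). Ppargc1a, the coactivator PGC-1alpha, was at 9828, 9750 and 9874 normalized reads in sham and at 8812, 9211 and 8585 in TAC. Its groups did not overlap, but the change of -0.15 ± 0.0512 did not pass (adjusted p = 0.103). Counts ran from 3 without sham 2 or sham 3 to 5 without sham 1 or TAC 1, and calls were lost for Rxra without sham 2 or sham 3 (0.0579 to 0.0649) and Esrrg without sham 2, sham 3, TAC 2 or TAC 3 (0.0509 to 0.0967).

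Of 27 genes of sarcoplasmic reticulum calcium handling and ion channels 5 fell and 1 rose (median -0.13), against 4.41% and 3.31% over all genes. Atp2a2, the SERCA2 pump that refills the sarcoplasmic reticulum, was at 1468140, 1433590 and 1402570 normalized reads in sham and at 946427, 1140660 and 1155340 in TAC. TAC 1 was the lowest, no library overlapped, and Atp2a2 fell by 0.41 ± 0.075 (adjusted p = 0.00672), a call that held with each library left out. Ryr2, the calcium release channel (-0.37), Hrc, a luminal calcium buffer (-0.29), the exchanger Slc8a1 (-0.27) and the junction protein Jph1 (-0.21) were the other falls. Slc8a1 (0.315), Ryr2 (0.282) and Jph1 (0.0506) were lost with the length trend removed, which left 1 rise and 2 falls in the list. With libraries left out, Jph1 was called in 0 of the 6 fits (0.0827 to 0.176), and calls were lost for Ryr2 without sham 1, sham 3, TAC 1 or TAC 2 (0.0558 to 0.134), Slc8a1 without sham 1, sham 2, sham 3, TAC 1 or TAC 2 (0.0601 to 0.146) and Hrc without sham 3 (0.0521). Casq1, a calsequestrin of skeletal muscle, was the rise (0.52). Counts ran from 2 without sham 3 to 7 without TAC 3.

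Of 24 potassium channel genes 5 fell and 0 rose (20.8% called, against 7.72% over all genes, median -0.18), and 4 of the falls are described here. Kcnv2, a modifier subunit of voltage-gated potassium channels, was at 1216, 1238 and 1451 normalized reads in sham and at 508, 849 and 770 in TAC. It fell by 0.90 ± 0.189 (adjusted p = 0.0348), with no overlap. Kcnd2, which carries the transient outward current, fell by 0.40, the background potassium channel Kcnk3 by 0.28 and Kcnj3, an atrial inward rectifier, by 0.27. With 1 library left out, the list had 0 calls without sham 3, 1 without sham 2 and 5 without TAC 2. Adjusted p-values passed 0.05 for Kcnv2 without sham 1, sham 2, sham 3 or TAC 3 (0.0678 to 0.102), Kcnd2 without sham 3 (0.0559), Kcnk3 without sham 1, sham 2, sham 3 or TAC 1 (0.0514 to 0.0985) and Kcnj3 without sham 1, sham 2, sham 3 or TAC 1 (0.0522 to 0.096).

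Clock and glucocorticoid-responsive genes changed in both directions. Called were 27.8% of the clock list, 31.6% of the glucocorticoid list and 11.5% of the autophagy and atrophy list, against 7.72% over all genes. Of 18 clock genes 3 fell and 2 rose, and 3 to 5 were called with 1 library left out. Arntl (BMAL1), the activator of the circadian loop, was at 495, 724 and 532 normalized reads in sham and at 287, 315 and 255 in TAC. It fell by 1.01 ± 0.145 (adjusted p = 0.00181). Its partner Clock fell by 0.54 ± 0.0744 and the repressor Nr1d1 by 0.62 ± 0.0779, both with no overlap, and the repressors Cry1 and Bhlhe41 rose by 0.34 and 0.23. Cry1 was called in 0 of the 6 fits with 1 library left out (adjusted p 0.0513 to 0.143) and lost with the length trend removed (0.0658). The hour of the day at which hearts were taken is not stated in the labels, so it cannot be told apart from surgery if it differed. Of 19 glucocorticoid-responsive genes 4 fell, Klf15, the mineralocorticoid receptor Nr3c2 (-0.38), Klf9 (-0.29) and Errfi1 (-0.29), and 2 rose, lipocalin Lcn2 (0.84) and metallothionein Mt1 (0.41). Of 26 autophagy and muscle atrophy genes 3 fell, the ubiquitin ligases Fbxo32 (atrogin-1, -0.51 ± 0.0831, adjusted p = 0.00502) and Nedd4 (-0.24) and Klf15. Nedd4 was lost with the length trend removed (0.103), and libraries left out ended the calls of Nedd4 without sham 1, sham 2, sham 3 or TAC 1 (0.0618 to 0.0879), Bhlhe41 without sham 1, sham 2, sham 3 or TAC 3 (0.0668 to 0.0908), Errfi1 without sham 1 or sham 2 (0.0628 to 0.0689) and Lcn2 without sham 2, sham 3 or TAC 3 (0.0548 to 0.0696).

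Of 23 metallothionein and oxidative stress genes 3 rose, against 3.31% over all genes. These were Nox4, a hydrogen peroxide-producing oxidase (0.84), Mt1 and Gpx1 (0.32). Of 16 imprinted growth genes 4 rose and 0 fell (25.0% called, against 7.72% over all genes). Meg3 (0.57), Rian (0.46) and Mirg (1.06) are noncoding transcripts of neighbouring loci on chromosome 12, and Grb10 (0.23) is an adaptor that restrains insulin signalling. Mirg was called in 0 of the 6 fits with 1 library left out, and calls were lost for Grb10 without sham 1, sham 2, sham 3, TAC 1 or TAC 3 (0.0734 to 0.124), Nox4 without sham 1, sham 3, TAC 1 or TAC 2 (0.0551 to 0.0832) and Gpx1 without sham 1 (0.059). Of 31 angiogenic and Notch genes 2 fell, Angpt1 and the receptor Pdgfra (-0.22), the latter lost with the length trend removed (0.161). Angpt1, a vessel-stabilizing ligand, was at 3421, 3829 and 3444 normalized reads in sham and at 1614, 1922 and 2194 in TAC. It fell by 0.91 ± 0.101 (adjusted p = 0.00101). Of 24 sterol and fatty acid synthesis genes Srebf1 (-0.33) and Acacb (-0.28) fell, of 20 tubulin genes Tuba1a rose (0.32), of 35 proteasome subunits Psmd8 rose (0.23), and of 41 splicing factors Luc7l3 rose (0.24) and Rbfox1, a muscle splicing regulator, fell (-0.53 ± 0.0671, adjusted p = 0.00101). Called were 8.33%, 5.0%, 2.86% and 4.88% of these lists in turn, and 6.45% of the angiogenic and Notch list. Such shares are near or below the 7.72% over all genes. Acacb and Psmd8 were lost with the length trend removed (0.0981 and 0.0689), and Luc7l3 was called in 0 of the 6 fits with 1 library left out. Calls were also lost for Pdgfra without sham 1, sham 2, sham 3, TAC 2 or TAC 3 (0.0712 to 0.123), Srebf1 without sham 2, sham 3, TAC 1, TAC 2 or TAC 3 (0.0543 to 0.089), Acacb without sham 1, sham 2, sham 3, TAC 1 or TAC 2 (0.101 to 0.126), Tuba1a without sham 3 (0.0672) and Psmd8 without sham 1, sham 2, sham 3, TAC 1 or TAC 2 (0.0589 to 0.122).

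No cell cycle gene was called. Of 30 tested, 0 passed by limma and edgeR and 2 by DESeq2, and limma's unadjusted p was below 0.05 for 3 with a higher and 3 with a lower mean. The median log2 change was 0.15. Mki67, present in dividing cells, was at 176, 221 and 125 normalized reads in sham and at 245, 193 and 265 in TAC, with TAC 2 inside the sham range (adjusted p = 0.204).

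Counts for markers of other cell types stand against 7.72% called over all genes. Of 11 endothelial markers 0 were called by limma, edgeR or DESeq2, 0 had an unadjusted p below 0.05, and their sum was 123041 to 132979 normalized reads in sham and 127452 to 133650 in TAC. Of 11 fibroblast markers 4 rose (Mfap5, Pi16 by 0.96, Lum and Dpt by 0.26) and Pdgfra fell. Their sum was 136469 to 141608 in sham and 146118 to 151555 in TAC. Of 9 smooth muscle markers 5 rose and 0 fell, Actg2 (1.35), Cnn1 (1.26), Acta2 (0.55), Des and Myh11 (0.29), with 2 called without sham 1 or sham 3 and 3 without TAC 2. They summed to 149373 to 170647 in sham and 201552 to 207798 in TAC, with Des the most abundant, which myocytes also express. Acta2 was lost with the length trend removed (0.0851) and without sham 1, sham 3, TAC 2 or TAC 3 (0.0579 to 0.106), and Cnn1 with the trend removed (0.0594) and without sham 1, sham 3, TAC 1 or TAC 2 (0.0924 to 0.15). Pericyte markers gave 1 rise, Cspg4 (0.39), and 1 fall, Abcc9, the sulfonylurea receptor of cardiac and vascular KATP channels, from 32566 to 34720 normalized reads in sham to 19413 to 23228 in TAC (-0.61 ± 0.0702). Lymphatic endothelial markers gave 1 rise, Pdpn (0.44), and 1 fall, Prox1 (-0.32), among 6. Both were lost with the length trend removed (0.078 and 0.0573), and with libraries left out for Pdpn without sham 1, sham 2, sham 3, TAC 1 or TAC 3 (0.0754 to 0.126) and Prox1 without sham 2, sham 3, TAC 1 or TAC 3 (0.0686 to 0.0991). Lymphocyte, mast cell, nerve, red blood cell and skeletal muscle lists gave 0 calls, and 5 skeletal muscle markers (Myh1, Myh2, Myh4, Tnnc2 and Actn3) were too low to be tested. Neutrophil markers gave 1 rise, Csf3r (0.96), epicardial markers 1, Muc16 (1.52), and adipocyte markers 2 of 9, Cidec (1.15) and Cidea (0.27). Atrial myocyte markers gave 1 rise, Nppa, and valve and cartilage markers 1, Acan. With the length trend removed, Cidec (0.065), Cidea (0.102) and the fibroblast markers Dpt (0.0537) and Pdgfra (0.161) were lost. With libraries left out, calls were lost for Csf3r without sham 2, sham 3, TAC 2 or TAC 3 (0.0969 to 0.121), Muc16 without sham 1, sham 2, TAC 1, TAC 2 or TAC 3 (0.057 to 0.136), Cidec without sham 1, sham 3, TAC 2 or TAC 3 (0.0649 to 0.133), Cidea without sham 1, sham 2, sham 3 or TAC 1 (0.0828 to 0.141), Myh11 without sham 1, sham 3, TAC 2 or TAC 3 (0.0895 to 0.131) and Dpt without sham 1 or sham 3 (0.0679 to 0.0729).

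The remaining large changes fell outside the lists above. Among the 12 largest rises whose call held with each library left out were Lman1l, a lectin relative of cargo receptors (1.84 ± 0.226), Atp6v0a4, a subunit of the vacuolar proton pump (1.72 ± 0.255), and Hp, haptoglobin, which binds free haemoglobin (1.52 ± 0.172). Hp went from 116, 125 and 106 normalized reads in sham to 433, 286 and 296 in TAC. Among the 12 largest falls, Ano10, a member of the anoctamin family, was at 3764, 4716 and 5047 in sham and at 1868, 2234 and 2046 in TAC. It fell by 1.13 ± 0.109 (adjusted p = 0.000988), with each TAC library far below each sham library. Crybg3 (-1.08), the lipid transporter Abca12 (-1.01), Uprt (-0.99), Cfap61 (-0.99), Lmbrd2 (-0.95) and Tbc1d10c (-0.91) fell as well, and Zfp871 fell by 1.00. Epha4, an ephrin receptor, was at 4130, 4627 and 4903 in sham and at 2603, 2648 and 2535 in TAC (-0.81 ± 0.0668, adjusted p = 0.000108).

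The same surgery on the control diet called 14.8% of 18305 genes, 9.17% higher and 5.64% lower. The controls of both comparisons are separate sham libraries. Of the 583 genes that rose without dietary BCAA, 337 also rose on the control diet (57.8%), which is 21.1% of the 1594 rises there that were tested here. Of the 776 falls that were tested on both diets, 354 also fell on the control diet (45.6%), which is 34.3% of its 1032 falls. Opposite directions were called for 2 genes, Hmcn2 and Cry1, which rose here and fell on the control diet. Cry1 was chosen for naming here after its values were seen. Its rise here was lost in each of the 6 fits with 1 library left out (adjusted p 0.0513 to 0.143) and with the length trend removed (0.0658). On the BCAA-free diet Cry1 went from 522, 564 and 581 normalized reads to 668, 686 and 751, and on the control diet from 894, 874 and 947 to 596, 681 and 717. Normalized reads of the control diet come from a table that was scaled on its own, so levels are compared within a diet.

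The difference between diets in the response was tested in 1 model of all 12 libraries. It was called for 118 of 17481 genes (0.675%), of which 30 were higher (0.172%) and 88 lower (0.503%) on the BCAA-free diet. All 88 with a lower response rose on the control diet, and 30 of them rose without dietary BCAA too. Their median log2 change was 1.26 on the control diet and 0.27 on the BCAA-free diet. All 30 with a higher response fell on the control diet, and of these 5 fell and 2 rose without dietary BCAA. The count moved with single libraries. Without control TAC 3 the difference was called for 1757 genes, 893 higher and 864 lower. Without BCAA-free sham 1, sham 2, sham 3, TAC 2 or TAC 3 it was called for 24, 16, 68, 17 and 17 genes, and without control sham 1, sham 2, sham 3 or TAC 2 for 60, 23, 29 and 47.

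Matrix and cytoskeletal genes were among those with the smaller response without dietary BCAA. Lower responses were called for 88 genes with all libraries. Leaving out 1 library gave 11 (without BCAA-free sham 2) to 864 (without control TAC 3). The count was 13 without BCAA-free TAC 2 and 14 without BCAA-free TAC 3. Not all genes named here thus keep a called difference in those fits. Cthrc1 rose by 5.28 on the control diet and by 2.29 here (difference -2.99 ± 0.456, adjusted p = 0.0147). On the control diet it went from 47.7, 46.1 and 44.7 to 2109, 2502 and 1164 normalized reads, well beyond the 146 or less found here. Called differences in the same direction were found for the collagens Col8a1, Col8a2, Col12a1 and Col16a1, for Thbs4, Wisp1 and Sfrp2, for Lox, Mfap5 and Efemp2, and for Pcolce, Mmp23 and Serpine2. That is 4 of 21 collagens, 4 of 27 matricellular genes with Cthrc1, 3 of 21 elastic fibre genes and 3 of 25 proteases and inhibitors. Over all genes a lower response was called for 0.503%, the share against which the counts of this paragraph stand. Lox rose by 3.66 on the control diet and by 1.48 here, and Col12a1 by 3.22 and 1.37. The replication helicase subunits Mcm3, Mcm5, Mcm6 and Mcm7 (4 of 30 cell cycle genes) and Tubb2b, Tubb5 and Stmn1 (3 of 20 tubulin and microtubule genes) also had called differences. None of these 7 was called here, and Mcm5, for example, changed by 1.10 on the control diet and by -0.01 here. In the fetal list 2 of 25 genes differed, Fhl1 (1.40 and 0.48) and Uchl1 (1.78 and 0.52).

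With all 12 libraries, many of the genes described above gave no called difference between diets. Without control TAC 3 the difference was called for 1757 genes, and the genes and lists of this paragraph are not reported for that fit. Igfbp2 rose by 3.47 on the control diet and 4.60 here (difference adjusted p = 0.385), Acta1 by 2.53 and 3.02 (0.744), Ccl8 by 3.14 and 2.96 and Ankrd1 by 1.61 and 1.27. Angpt1 fell by 0.95 there and 0.91 here, and Ano10 by 1.05 and 1.13. No member of the sarcomere or ER chaperone lists had a called difference with all libraries, which does not show that the responses were equal. On the control diet 1 sarcomere gene rose and 1 fell (median -0.04) and 7 ER genes rose and 1 fell (median 0.10). Here 10 sarcomere genes rose and 8 ER genes fell. Over all genes 9.17% rose and 5.64% fell on the control diet, against 3.31% and 4.41% here. A call on 1 diet alone thus does not show a difference. Hspa5, for example, had a log2 change of -0.27 on the control diet (adjusted p = 0.206) and a difference that did not pass (0.812). In BCAA breakdown 1 of 31 genes differed, Bckdha, which fell by 0.86 on the control diet and by 0.33 here (difference 0.53 ± 0.105, adjusted p = 0.0401). A higher response was called for 0.172% of all genes. The list had 15 falls and 1 rise on the control diet (median -0.49), against 5.64% and 9.17% over all genes there.

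**Figure D5:**
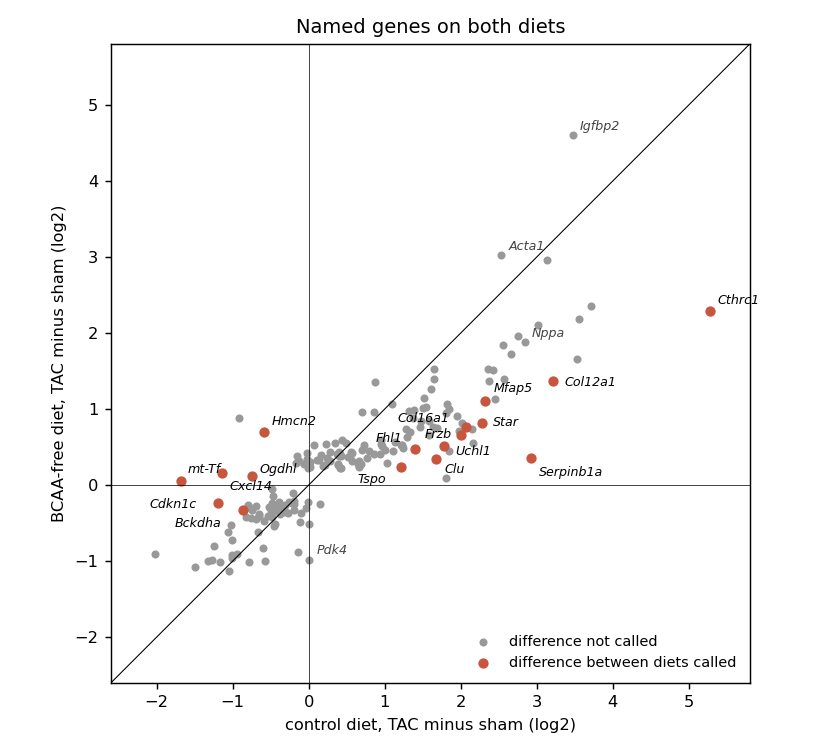
Log2 change with TAC on the control diet (horizontal) and on the BCAA-free diet (vertical) for the genes named by rule, which were chosen in part by these results. Red points have a called difference between diets, grey points do not, and the diagonal marks equal change. Cthrc1 lies at 5.28 and 2.29, Serpinb1a at 2.93 and 0.35, and Igfbp2 at 3.47 and 4.60.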

How the data were processed

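RNA of mouse hearts was selected for poly(A) after Trizol extraction, per the labels' protocols. Per the submitters' processing notes, the tools were DESeq2 (no version), Subread 1.5.2, STAR 2.5.2b and Trimmomatic 0.36, and the builds GRCm38 and mm10. No role, annotation release or strand setting is given, so overlapping, antisense and near-identical genes can share reads. The authors deposited a signal per library, read counts divided by a size factor, in 1 table per pair of groups, per the file headers. The table also holds log2 fold changes and p-values of the authors, per the file headers. The authors' deposited table gives an adjusted p for 15238 genes, below 0.05 for 1891 of them.

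Dividing each signal value by the smallest step of its library returned whole reads (tolerance 0.0001 read), 74203080 to 103113703 per BCAA-free library. The reads of the BCAA-free TAC libraries were equal in the 2 tables that hold them in all 52419 values compared. The table holds no gene with under 61 reads over its 6 libraries. In all, 9 further columns of per-sample values, whose headers have the form of the sample codes, were not used.

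Genes with a mean of 10 or more were tested on log2(signal + 1) by limma-trend with a robust empirical Bayes step (limma 3.58.1, R 4.3.3). A gene was called at a p below 0.05 after Benjamini-Hochberg adjustment over all genes tested. Adjusted p-values in the text are from limma unless another tool is named. Changes are differences of log2(value + 1), so those of low genes are understated, and errors are SE with 3 libraries in each group. The design had foreseen a count test if raw counts were deposited. The difference between diets was a contrast of all 12 libraries, each diet's TAC and sham libraries taken from 1 table, so that a table's scaling cancels. Alternatives were edgeR 4.0.16 (quasi-likelihood) and DESeq2 1.42.0 on recovered reads, TMM scaling, a pseudocount of 4, no filter, a mean of at least 50, no robust step, the replicate number as a block, and each library left out. Removing the trend with exonic length (GENCODE M21) per library and leaving out TAC 1 and TAC 3 together were chosen after seeing the data. The limma and edgeR fits were also run on simulated counts, in which libraries differed by depth and surgery alone. That run held no length trend and no library that stood apart, so it does not cover these features of the data.

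In all, 62 gene and marker lists were used. The lists and the genes shown were chosen with earlier results of these data known. Named genes were the 12 largest rises and falls among calls with a mean of 50 or more, no overlap and a call with each library left out; up to 4 called members with the smallest p per list; a fixed set of 25 genes; and, for the difference between diets, 5 per direction by smallest p. Further called list members are named to complete a count and were chosen after their values were seen. In the fixed set Fgf21 was too low to be tested. A few genes that the rule selects are not reported here. Positions are GRCm38 from GENCODE M21, and promoters are RefSeq's for GRCm38.p6.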

Additional observations from a re-analysis of the deposited data

Results flagged for a closer look

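By the test of the difference itself, 118 genes had unequal TAC responses on the 2 diets, and the 5 with the smallest p in each direction are given here as the response on the BCAA-free diet minus that on the control diet, in log2 units ± SE. Groups of 3 libraries are too small for a check of single outlying libraries.

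The response was higher without dietary BCAA for mt-Tf, the mitochondrial phenylalanine tRNA (1.74 ± 0.23, adjusted p = 0.00918), Cxcl14, a chemokine (1.29 ± 0.175, adjusted p = 0.00918), Hmcn2, a hemicentin of the matrix (1.29 ± 0.199, adjusted p = 0.0164), Ogdhl, an oxoglutarate dehydrogenase-like enzyme (0.86 ± 0.133, adjusted p = 0.0164), and Cdkn1c, the imprinted cyclin kinase inhibitor p57 (0.96 ± 0.152, adjusted p = 0.0171). On the control diet all 5 fell, by 1.68, 1.13, 0.59, 0.74 and 1.19. Here Hmcn2 rose from 1727, 1496 and 1538 normalized reads in sham to 2714, 2305 and 2712 in TAC (0.70 ± 0.0807, adjusted p = 0.000688). On the control diet it went from 3463, 2367 and 3175 to 2084, 2236 and 1646. The other 4 were not called here, for example mt-Tf at 774, 709 and 902 in sham and 720, 846 and 918 in TAC.

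The response was lower without dietary BCAA for Serpinb1a, a serine protease inhibitor (-2.58 ± 0.284, adjusted p = 0.00586), Tspo, a mitochondrial outer membrane protein (-0.98 ± 0.121, adjusted p = 0.00918), Uchl1, a deubiquitinase (-1.27 ± 0.167, adjusted p = 0.00918), Clu, clusterin (-1.32 ± 0.18, adjusted p = 0.00918), and Star, a cholesterol carrier (-1.46 ± 0.202, adjusted p = 0.00918). Serpinb1a was at 223, 185 and 211 normalized reads in sham and 254, 218 and 325 in TAC here, and went from 366, 277 and 288 to 2561, 2991 and 1684 on the control diet. Star and Uchl1 rose on both diets, by 0.82 and 0.52 here and by 2.28 and 1.78 there. The difference for Hmcn2 was lost without BCAA-free sham 2 (adjusted p = 0.0655) or TAC 3 (0.0581). Those for Cdkn1c and Ogdhl were lost without BCAA-free sham 2, TAC 2 or TAC 3 or control sham 2 (adjusted p 0.0514 to 0.0668). The differences of the other 7 passed with each of the 12 libraries left out.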

How the results depend on the processing

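With the replicate number as a block, 623 genes were called for TAC against sham (303 higher, 320 lower). Same-numbered libraries correlated at -0.171, -0.128 and -0.0293 over genes, as deviations from the mean of their group. Of the 3 sham libraries 0 correlated best with the TAC library of their own number. With 3 centred libraries in each group, such values cannot decide whether same-numbered libraries were handled together. The labels do not say what the number stands for, and a batch behind it was not tested. Leaving out 1 library gave 543 to 1253 calls (247 to 623 higher, 296 to 630 lower). Without TAC 1 and TAC 3 together, which leaves 1 TAC library assumed to vary like the sham libraries, 297 were called (124 higher, 173 lower). The cause was not tested beyond the smaller number of libraries. Total calls were 1412 by edgeR, 1893 by DESeq2, 1361 with TMM scaling, 1362 with a pseudocount of 4, 1360 with no filter, 1425 at a mean of at least 50, 1238 without the robust step and 1025 with the length trend removed. For the difference between diets, the replicate block left 1 gene (0 higher, 1 lower), leaving out 1 library gave 16 to 1757 (3 to 893 higher, 11 to 864 lower), edgeR gave 136 and a pseudocount of 4 gave 124. Of 168 called genes among the 186 named, 50 were called under each of the 16 settings, and 0 called values reversed their direction under any of these settings. With 3 libraries in each group and a median SE of 0.106 log2 units, small changes could not be told from the spread between libraries. The deposited table starts at 61 reads, so rarer transcripts were not analysed here.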
